A study of Mus musculus with 6 samples.

Results

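The genes described here are 10 genes with which enterocytes take up, bind, re-esterify and export dietary lipid: Fabp1, Fabp2 and Rbp2, which encode lipid-binding proteins, Apob, Apoa1, Apoa4 and Apoc3, which encode apolipoproteins, Mttp, which encodes the lipid transfer protein of chylomicron assembly, and Dgat1 and Dgat2, which encode enzymes of triglyceride synthesis. They were chosen by symbol for their role, with no threshold on their values, though earlier results of these data were known. All 10 were found among the 28564 gene identifiers of the count table, and all 10 passed the filter on low counts, which left 15122 genes for testing. RNA sequencing was done on crypt epithelial cells of the small intestine, sorted as live single EpCAM+ CD44+ cells without CD31 or CD45. The cells came from male Apln-/- mice and from male wild-type C57Bl/6 controls, both aged 13 weeks, with 3 biological replicates per genotype. Apln encodes the secreted peptide apelin. The sources used here name no Cre, promoter or deleted exon for the Apln allele, so the extent of the deletion is not stated.

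Dietary fat reaches the enterocyte as fatty acids and monoglycerides. Fatty acid-binding proteins carry fatty acids to the endoplasmic reticulum, where the DGAT enzymes make triglyceride. The microsomal transfer protein then loads triglyceride onto apolipoprotein B, and the particle leaves the cell as a chylomicron. This programme is best known from villus enterocytes. Crypts hold absorptive progenitors, stem cells and secretory cells. Which of the sorted cells carried these transcripts was not measured. In such bulk samples, fewer cells of a type and less RNA per cell cannot be told apart.

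The 6 libraries held 23046880 to 26513481 counts, of which 5144725 to 5623112 in knockout and 6037237 to 7616648 in wild-type libraries lay outside the 5 most abundant entries. Apln had 0 counts in each knockout library, against 29, 7 and 5 counts in wild-type libraries 1, 2 and 3. The sort marker genes Epcam and Cd44 averaged 310 ± 24.6 and 62.2 ± 9.48 CPM in knockout cells, against 294 ± 12.9 and 57.5 ± 5.61 CPM in wild-type cells (SD, n = 3 each). CPM are counts scaled to library size, here by the trimmed mean of M-values (TMM). Across genes the knockout libraries held more of short and less of long transcripts. Tested genes with transcripts up to 1093 nucleotides, the shortest eighth, had a median log2 fold change of 0.25, and those of at least 5888 nucleotides, the longest eighth, of -0.19. The transcripts of Fabp1, Fabp2, Rbp2, Apoa1 and Apoc3 are in the short class and that of Apob is in the long one. The log2 fold change of each member is therefore also given after a correction for length and GC content where this moves it by more than 1.5 times.

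No difference between Apln knockout and wild-type crypt cells passed the test for any of the 10 genes. With the quasi-likelihood test of edgeR and Benjamini-Hochberg adjustment over all 15122 genes, 0 of 10 had an adjusted p under 0.05, where 0.172% of all tested genes did, 0.112% higher and 0.0595% lower in the knockout. DESeq2's Wald test, limma-voom and a robust quasi-likelihood fit also called 0 of them. At an unadjusted p under 0.05 there were 2 of 10, Fabp1 on the lower and Apoa1 on the higher side in the knockout, where 15.2% of all tested genes lay under this limit, 7.53% on the higher and 7.66% on the lower side. With the length and GC correction the 2 were Fabp1 and Rbp2, both lower. Knockout and wild-type libraries did not overlap for 1 of 10, Fabp1, where 20.9% of all tested genes did not overlap, 11.3% higher and 9.56% lower in the knockout. The log2 fold changes ran from -1.01 for Fabp1 to 0.52 for Apoa1, 5 of them above 0 and 5 below. Their median was -0.13, against -0.01 over all genes tested.

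4 of the genes carry, just upstream of an annotated transcript start, the sequence CAAAGNNCA, the core of the element bound by the nuclear receptors HNF4A and HNF4G, which drive enterocyte genes. The stretches are shown because transcripts of both receptors were measured in the same libraries and are described with the regulators. RefSeq promoters of GRCm38.p6, windows of 300 bases, were found for 7 of the 10 genes, and 4 of these hold the core on either strand, as do 6.36% of the 32851 promoter windows in the table. The core was chosen after the sequences had been seen. Each stretch runs 5′ to 3′ on the plus strand, which is the coding strand of all 4 genes, ends before the exon at that start and has the core, or its reverse complement TGNNCTTTG, in capitals:
Apoa4, chr9:46240622-46240695: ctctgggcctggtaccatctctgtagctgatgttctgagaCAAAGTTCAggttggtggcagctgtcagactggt
Apob, chr12:7977534-7977622: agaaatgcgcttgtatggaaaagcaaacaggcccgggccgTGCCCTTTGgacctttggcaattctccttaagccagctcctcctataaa
Fabp2, chr3:122894895-122894983: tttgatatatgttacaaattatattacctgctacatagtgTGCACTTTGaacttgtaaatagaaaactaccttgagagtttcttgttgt
Rbp2, chr9:98490396-98490527: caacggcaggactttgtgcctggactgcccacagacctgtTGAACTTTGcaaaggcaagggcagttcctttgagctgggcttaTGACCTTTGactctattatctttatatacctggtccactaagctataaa
Rbp2 holds the core at 2 places. Its stretch lies before the start of a shorter annotated transcript, and within an intron of the longer transcripts that begin at the gene start given below. In the windows of Apoa1, Fabp1 and Mttp these letters were not found. A match is a match of letters only, and binding was not measured.

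Levels of the 10 genes spanned a wide range in crypt cells. Per kilobase of the longest annotated transcript, Fabp2 stood at the top with 218 ± 45.3 CPM per kilobase in knockout cells and 176 ± 29.1 in wild-type cells (SD, n = 3 each), and its mean over all libraries exceeded that of 99.5% of tested genes. Apoa1 followed at 82.0 ± 26.7 CPM per kilobase in knockout cells and 57.1 ± 4.72 in wild-type cells, above 98.65% of tested genes. In all 6 libraries Fabp2 lay above Apoa1, and Apoa1 above Apob, with no overlap between the ranges. Below these, the ranges of neighbours overlapped, in the order Apob, Dgat1, Mttp, Fabp1, Rbp2, Apoa4, Apoc3 and Dgat2. Apob was at 12.7 ± 1.63 CPM per kilobase in knockout cells and 15.5 ± 3.22 in wild-type cells. Dgat2, the lowest, was at 2.39 ± 0.68 CPM per kilobase in knockout cells and 2.12 ± 1.23 in wild-type cells, still above 56.5% of tested genes. With the union of annotated exons as the length, Fabp1 moved up to rank 4 and the 3 highest kept their places. Together the 10 genes took 0.186% to 0.247% of the counts outside the 5 most abundant entries in knockout libraries and 0.208% to 0.227% in wild-type libraries.

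**Figure D1:**
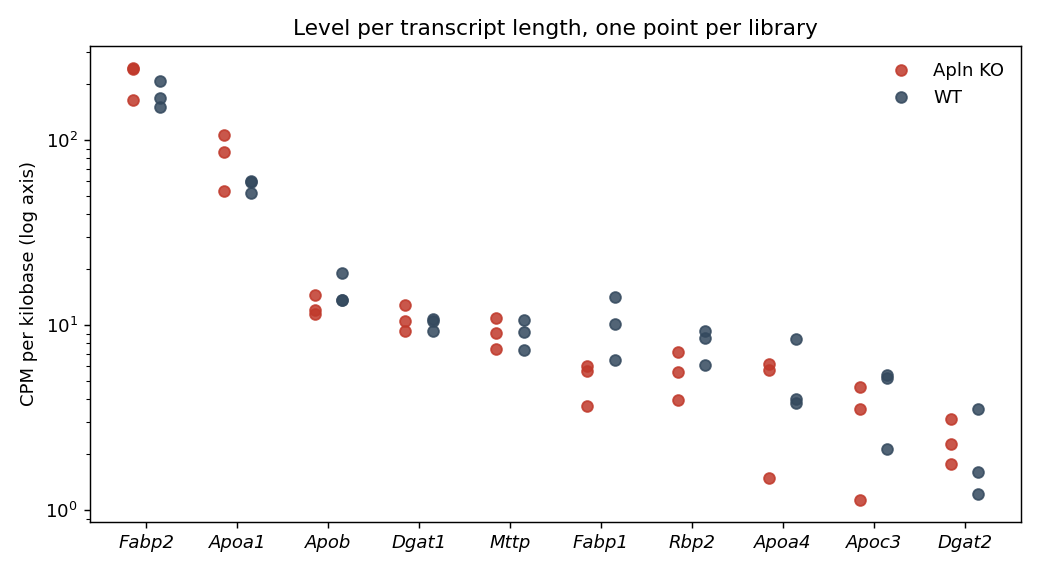
Level of each gene in CPM per kilobase of its longest annotated transcript, on a log axis, with 1 point per library, Apln knockout left of wild type. Fabp2 and Apoa1 lie apart at the top, and the other 8 genes form a descending series whose neighbours overlap.

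The lipid-binding protein genes Fabp1, Fabp2 and Rbp2 belong to one protein family. Their log2 fold changes were -1.01, 0.31 and -0.52 as counted, and -1.34, -0.01 and -0.76 after the length and GC correction, and differences between the genes were not tested. Fabp1 encodes the liver-type fatty acid-binding protein, which the proximal small intestine also makes. Fabp1 (ENSMUSG00000054422, chromosome 6, 71199827 to 71205023, plus strand of mm10) had 3.33, 3.14 and 2.03 CPM in knockout libraries 1, 2 and 3, against 3.57, 7.89 and 5.61 CPM in wild-type libraries 1, 2 and 3. All knockout libraries were below all wild-type libraries, but wild-type library 1 lay close above knockout library 1. The log2 fold change was -1.01 ± 0.34 (SE; 95% interval -1.75 to -0.27) with an edgeR unadjusted p of 0.0118 and a Benjamini-Hochberg adjusted p of 0.199. The gene rests on 182 counts over the knockout libraries and 497 over the wild-type libraries, of which wild-type library 2 gave 229. Without wild-type library 2 the log2 fold change was -0.71 (edgeR unadjusted p = 0.0615), and after the length and GC correction it was -1.34 (edgeR adjusted p = 0.183). Among 9 duodenal and jejunal markers, of which 8 were tested and 0 lay under an unadjusted p of 0.05, wild-type library 2 had the highest sum. The sum was 24.0 to 29.2 CPM in knockout libraries, against 26.5, 45.5 and 17.3 CPM in wild-type libraries 1, 2 and 3. The most abundant of them was Gata4, the transcription factor gene of the proximal small intestine, which had 9.52, 9.64 and 12.6 CPM in knockout libraries 1, 2 and 3, against 8.85, 26.8 and 5.90 CPM in wild-type libraries 1, 2 and 3. Another marker, Nt5e, was lowest in wild-type library 2, at 0.551 CPM. The part of intestinal region in the Fabp1 values was not tested.

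Fabp2, which encodes the intestinal fatty acid-binding protein, was the second most abundant of the 10 genes by CPM in wild-type cells and the first in knockout cells. Fabp2 (ENSMUSG00000023057, chromosome 3, 122895072 to 122899506, plus strand) had 238, 233 and 160 CPM in knockout libraries 1, 2 and 3, against 201, 146 and 163 CPM in wild-type libraries 1, 2 and 3. Knockout libraries 1 and 2 were above every wild-type library, while knockout library 3 lay among them. For this gene the log2 fold change was 0.31 ± 0.19 (SE; 95% interval -0.10 to 0.71; edgeR adjusted p = 0.478). After the length and GC correction it was -0.01.

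Rbp2 encodes the retinol-binding protein of enterocytes, which holds vitamin A for esterification and loading into chylomicrons. Rbp2 (ENSMUSG00000032454, chromosome 9, 98486115 to 98509781, plus strand) had 5.77, 4.48 and 3.17 CPM in knockout libraries 1, 2 and 3, against 7.50, 4.89 and 6.84 CPM in wild-type libraries 1, 2 and 3. The groups overlapped through knockout library 1, which lay above wild-type library 2. The log2 fold change was -0.52 ± 0.29 (SE; 95% interval -1.14 to 0.11; edgeR unadjusted p = 0.0959, adjusted p = 0.430). It was -0.32 without knockout library 3, and -0.76 with the length and GC correction (edgeR unadjusted p = 0.0179, adjusted p = 0.315).

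**Figure D2:**
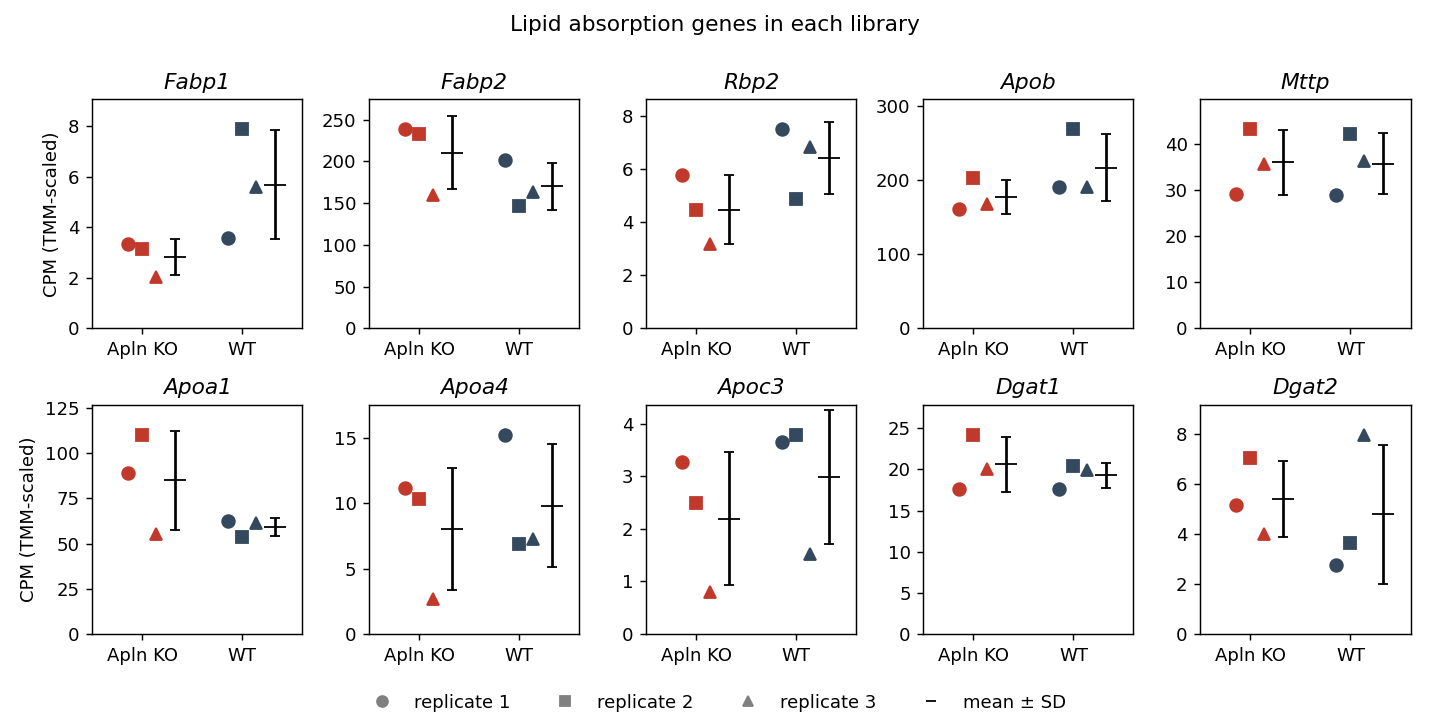
TMM-scaled CPM of each gene in every library, Apln knockout left of wild type in each panel, with the replicate shown by the shape of the point and the mean ± SD beside the points. Fabp1 alone has groups that do not overlap, and knockout library 3 is the lowest of all 6 libraries for Apoa4, Apoc3, Fabp1 and Rbp2.

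Ratios of counts within a library do not depend on the scaling between libraries. Of 8 ratios computed, none was tested, and they were chosen after the values above had been seen. For every 100 counts of Fabp2 there were 1.40, 1.35 and 1.27 counts of Fabp1 in knockout libraries 1, 2 and 3, against 1.78, 5.39 and 3.45 in wild-type libraries 1, 2 and 3. The knockout libraries were close to each other and below each wild-type library. Counts of Rbp2 per 100 counts of Fabp2 were 2.42, 1.92 and 1.98 in knockout libraries 1, 2 and 3, against 3.73, 3.34 and 4.20 in wild-type libraries 1, 2 and 3. Here too the groups did not overlap, and the spread within each group was smaller than the distance between them. Both ratios set a gene with a log2 fold change below 0 over Fabp2, which was above 0 as counted, so they add no separate evidence. The groups overlapped for Apoc3 and Apoa4 against Apoa1, Apoc3 against Apoa4, Mttp against Apob and Dgat2 against Dgat1. Both ratios compare genes with short transcripts.

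**Figure D3:**
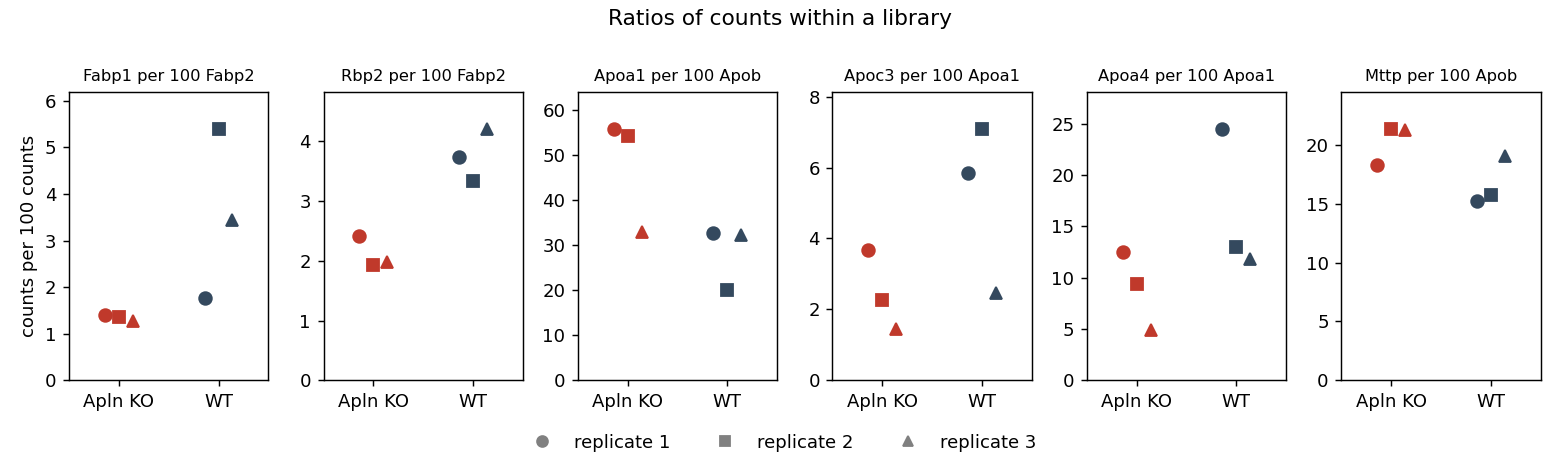
Counts of a gene per 100 counts of another gene in the same library, Apln knockout left of wild type, with the replicate shown by the shape of the point, for 6 of the 8 ratios. The groups do not overlap for Fabp1 or Rbp2 against Fabp2, nor for Apoa1 against Apob, where the nearest libraries are at 32.9 in the knockout and 32.8 in wild type.

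Apob encodes the scaffold protein of the chylomicron, which stays with its particle. Apob (ENSMUSG00000020609, chromosome 12, 7977648 to 8016835, plus strand) had 160, 203 and 168 CPM in knockout libraries 1, 2 and 3, against 190, 268 and 191 CPM in wild-type libraries 1, 2 and 3. Knockout library 2 lay above wild-type libraries 1 and 3, so the groups overlapped. On the log2 scale the fold change was -0.29 ± 0.18 (SE; 95% interval -0.67 to 0.09; edgeR adjusted p = 0.475). Its longest transcript of 13934 nucleotides is longer than those of 99.5% of tested genes, and with the length and GC correction its log2 fold change was -0.11. It was -0.12 without wild-type library 2, the highest library.

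Mttp encodes the large subunit of the microsomal triglyceride transfer protein, without which apolipoprotein B is not lipidated. Mttp (ENSMUSG00000028158, chromosome 3, 138089854 to 138144968, minus strand) had 29.3, 43.3 and 35.8 CPM in knockout libraries 1, 2 and 3, against 28.9, 42.3 and 36.4 CPM in wild-type libraries 1, 2 and 3. The values of the groups covered the same range. The log2 fold change was 0.01 ± 0.19 (SE), with a 95% interval of -0.40 to 0.42. Exons of Mttp overlap those of Trmt10a on the other strand by 457 bases, and whether counting used the strand is not stated. P4hb, which encodes protein disulfide isomerase, the other subunit of the transfer protein, averaged 216 ± 18.8 CPM in knockout cells and 170 ± 12.8 CPM in wild-type cells (SD, n = 3 each), without overlap but with an edgeR adjusted p of 0.287. Apobec1, which encodes the enzyme that edits the Apob transcript to its short intestinal form, averaged 5.58 ± 0.815 CPM in knockout cells and 8.81 ± 0.395 CPM in wild-type cells, without overlap and with an edgeR adjusted p of 0.186.

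Apoa1, Apoc3 and Apoa4 lie side by side on chromosome 9, 2466 and 5059 bases apart. Within the knockout each was lowest in library 3. The log2 fold change was above 0 for Apoa1 and below 0 for Apoc3 and Apoa4. Apoa1 encodes the main protein of high-density lipoprotein, made by liver and intestine. Apoa1 (ENSMUSG00000032083, 46228580 to 46230466, plus strand) had 89.2, 110.0 and 55.3 CPM in knockout libraries 1, 2 and 3, against 62.3, 53.5 and 61.6 CPM in wild-type libraries 1, 2 and 3. Knockout libraries 1 and 2 were above all wild-type libraries and knockout library 3 was not. Its log2 fold change was 0.52 ± 0.21 (SE; 95% interval 0.06 to 0.99) with an edgeR unadjusted p of 0.0310 and a Benjamini-Hochberg adjusted p of 0.274. It was 0.29 without knockout library 2 (edgeR unadjusted p = 0.184), and 0.37 with the length and GC correction (edgeR unadjusted p = 0.118).

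Apoa4 encodes a chylomicron apolipoprotein whose transcript is a marker of enterocytes near the villus tip. Apoa4 (ENSMUSG00000032080, 46240696 to 46243459, plus strand) had 11.2, 10.3 and 2.69 CPM in knockout libraries 1, 2 and 3, against 15.2, 6.92 and 7.25 CPM in wild-type libraries 1, 2 and 3. Knockout library 3 was low and wild-type library 1 high, and of the others both knockout libraries lay above both wild-type libraries. The log2 fold change was -0.28 ± 0.44 (SE; edgeR adjusted p = 0.817), 0.14 without knockout library 3 and 0.17 when wild-type library 1 was left out. Exons of Apoa4 overlap those of Gm10680 and Gm47528 on the other strand by 632 and 634 bases, so its counts are uncertain.

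Apoc3 encodes an inhibitor of lipoprotein lipase that rides on chylomicrons. Apoc3 (ENSMUSG00000032081, 46232933 to 46235636, minus strand) had 70, 54 and 17 counts in knockout libraries 1, 2 and 3, against 92, 110 and 48 counts in wild-type libraries 1, 2 and 3. In CPM these are 3.28, 2.49 and 0.803 in the knockout libraries, against 3.65, 3.79 and 1.51 in the wild-type libraries. Replicate 3 was the lowest of its group in both genotypes, and the groups overlapped. For this gene the log2 fold change was -0.44 ± 0.50 (SE; edgeR adjusted p = 0.733), -0.04 without knockout library 3, -0.85 without knockout library 1 and -0.67 after the length and GC correction.

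Set against Apob, Apoa1 had 55.7, 54.2 and 32.9 counts per 100 counts in knockout libraries 1, 2 and 3, against 32.8, 19.95 and 32.2 in wild-type libraries 1, 2 and 3. Knockout library 3 lay just above wild-type library 1. These genes differ widely in transcript length. Apoa4 per 100 counts of Apoa1 was 12.5, 9.40 and 4.87 in knockout libraries 1, 2 and 3, against 24.4, 12.9 and 11.8 in wild-type libraries 1, 2 and 3, and the groups overlapped through knockout library 1. Apoc3 per 100 counts of Apoa4 was 29.4, 24.1 and 29.8 in knockout libraries 1, 2 and 3. In wild-type libraries 1, 2 and 3 it was 24.0, 54.7 and 20.9, and the groups overlapped. Of 9 other genes around the cluster that are in the table, all were tested and 0 passed at an adjusted p under 0.05. At an edgeR unadjusted p under 0.05, 7.53% of all tested genes were higher and 7.66% lower. Of the 9 neighbours, 1 was higher and 1 lower at this limit. These were Pafah1b2, an acetylhydrolase subunit gene (29.5 ± 3.31 CPM in knockout and 22.5 ± 1.13 CPM in wild-type cells), and Sik3, a salt-inducible kinase gene (12.2 ± 0.362 CPM in knockout and 19.6 ± 3.02 CPM in wild-type cells; SD, n = 3 each). Sik3 had an edgeR adjusted p of 0.113 and a DESeq2 adjusted p of 0.0204.

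Dgat1 and Dgat2 encode unrelated enzymes that both add the last fatty acid to make triglyceride. Dgat1 (ENSMUSG00000022555, chromosome 15, 76502015 to 76511953, minus strand) had 17.6, 24.2 and 19.99 CPM in knockout libraries 1, 2 and 3, against 17.6, 20.4 and 19.9 CPM in wild-type libraries 1, 2 and 3. The groups covered nearly the same range, with a log2 fold change of 0.10 ± 0.17 (SE; 95% interval -0.28 to 0.47; edgeR adjusted p = 0.844). It was 0.02 after the length and GC correction and -0.03 without knockout library 2. Dgat2 (ENSMUSG00000030747, chromosome 7, 99153658 to 99182719, minus strand) had 5.16, 7.06 and 4.02 CPM in knockout libraries 1, 2 and 3, against 2.78, 3.65 and 7.98 CPM in wild-type libraries 1, 2 and 3. Wild-type library 3 was the highest of all 6, and the other wild-type libraries were the lowest. The log2 fold change was 0.17 ± 0.38 (SE; edgeR adjusted p = 0.882) and 0.75 without wild-type library 3 (edgeR unadjusted p = 0.0381, adjusted p = 0.227).

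**Figure D4:**
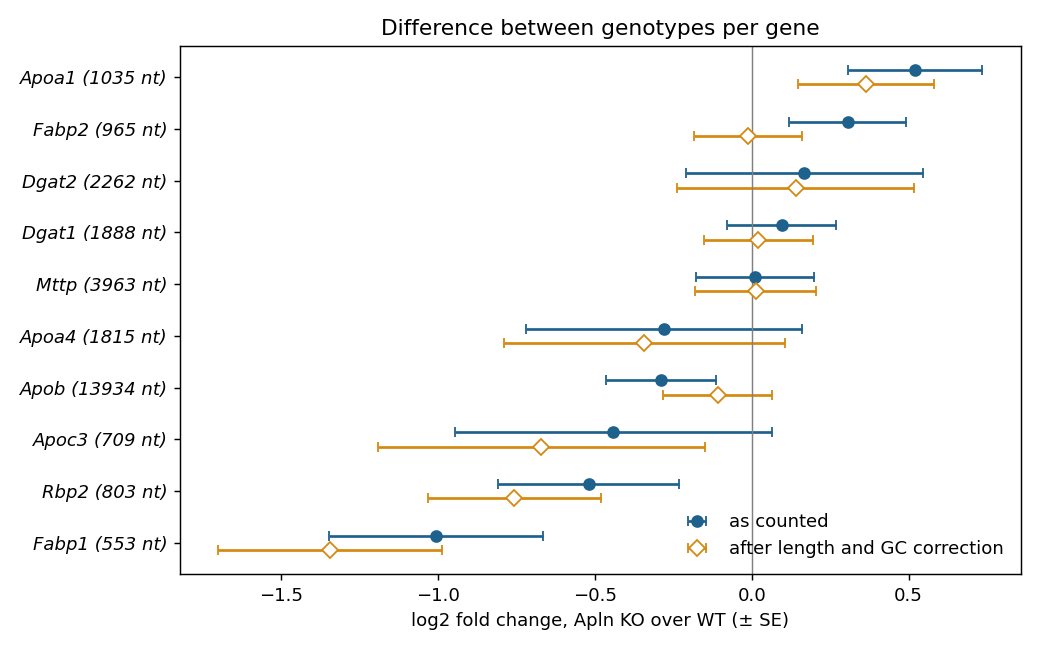
Log2 fold change of each gene, Apln knockout over wild type, with its SE, as counted (filled circles) and after the correction for transcript length and GC content (open diamonds), with the longest transcript in nucleotides beside the symbol. The correction takes Fabp2 from 0.31 to -0.01 and Apob from -0.29 to -0.11, and Fabp1 from -1.01 to -1.34.

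The genes differed in how much they varied between libraries of one genotype. Apoa4 and Apoc3 had the widest spread in the knockout, where the highest library was 4.14 and 4.09 times the lowest, and biological coefficients of variation of 0.376 and 0.427. Dgat1, Apob, Mttp and Fabp2 had 0.160, 0.167, 0.172 and 0.176, against a median of 0.262 over all tested genes. Knockout library 3 was the lowest knockout library for 7 of the 10 genes. The share of all tested genes for which it was the lowest was not computed, so the count is not read as a trait of these genes.

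The wider lipid pathway, in lists of genes chosen by symbol, had 0 genes called by edgeR, while DESeq2 called Mia3, Agpat1 and Sec24b among the genes named. Over all tested genes DESeq2 called 581, 300 higher and 281 lower in the knockout, against 26 with edgeR. Mia3, Agpat1 and Sec24b were named for their low edgeR p within their lists, so these calls do not describe the lists as a whole. Among 10 genes of lipid uptake and efflux at the membrane, all tested, 0 lay under an unadjusted p of 0.05. Npc1l1, the cholesterol uptake transporter gene, averaged 42.1 ± 14.3 CPM in knockout cells and 54.6 ± 15.02 CPM in wild-type cells, while the fatty acid translocase gene Cd36 was at 0.484 ± 0.276 CPM in knockout cells and 0.763 ± 0.441 CPM in wild-type cells (SD, n = 3 each). Among 17 tested genes of acyl-CoA and glycerolipid synthesis, 0 were higher and 2 lower at an unadjusted p under 0.05. Of all tested genes, 7.53% were higher and 7.66% lower at this limit. Agpat1, which encodes an enzyme making phosphatidic acid, averaged 13.1 ± 1.55 CPM in knockout cells and 20.6 ± 2.80 CPM in wild-type cells (edgeR adjusted p = 0.126; DESeq2 adjusted p = 0.0282). Soat2, the cholesterol-esterifying enzyme of enterocytes, averaged 6.33 ± 1.28 CPM in knockout cells and 9.74 ± 2.24 CPM in wild-type cells (edgeR adjusted p = 0.254). Mogat2, which encodes the monoglyceride acyltransferase upstream of the DGAT step, averaged 7.03 ± 2.64 CPM in knockout cells and 5.81 ± 2.44 CPM in wild-type cells (edgeR adjusted p = 0.763).

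Among 18 genes of chylomicron assembly and export partners, 1 was higher (P4hb) and 4 were lower at an unadjusted p under 0.05. For comparison with each list here, 7.53% of all tested genes were higher and 7.66% lower at this limit. Mia3 encodes TANGO1, which fits large cargo into vesicles at endoplasmic reticulum exit sites. It averaged 15.8 ± 2.25 CPM in knockout cells and 26.3 ± 3.56 CPM in wild-type cells, a log2 fold change of -0.74 ± 0.18 (SE; edgeR adjusted p = 0.0950; DESeq2 adjusted p = 0.00755). Sec24b, a coat subunit gene of the same vesicles, averaged 23.6 ± 2.25 CPM in knockout cells and 34.2 ± 5.15 CPM in wild-type cells (edgeR adjusted p = 0.157; DESeq2 adjusted p = 0.0497). Of 9 tested vitamin A genes, 2 were higher at an unadjusted p under 0.05. Aldh1a1, which encodes a retinal dehydrogenase, averaged 7.43 ± 0.489 CPM in knockout cells and 4.21 ± 1.497 CPM in wild-type cells (edgeR adjusted p = 0.212), and Dhrs3, which encodes a retinal reductase, 5.83 ± 0.520 CPM in knockout cells and 3.44 ± 0.983 CPM in wild-type cells (edgeR adjusted p = 0.235). Of 7 tested genes for other lipid-binding proteins, 2 were higher at an unadjusted p under 0.05, Rbp7 and Scp2, with edgeR adjusted p of 0.293 and 0.273. Among 10 tested lipid droplet genes and 3 tested genes of other apolipoproteins, 0 lay under that limit.

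**Figure D5:**
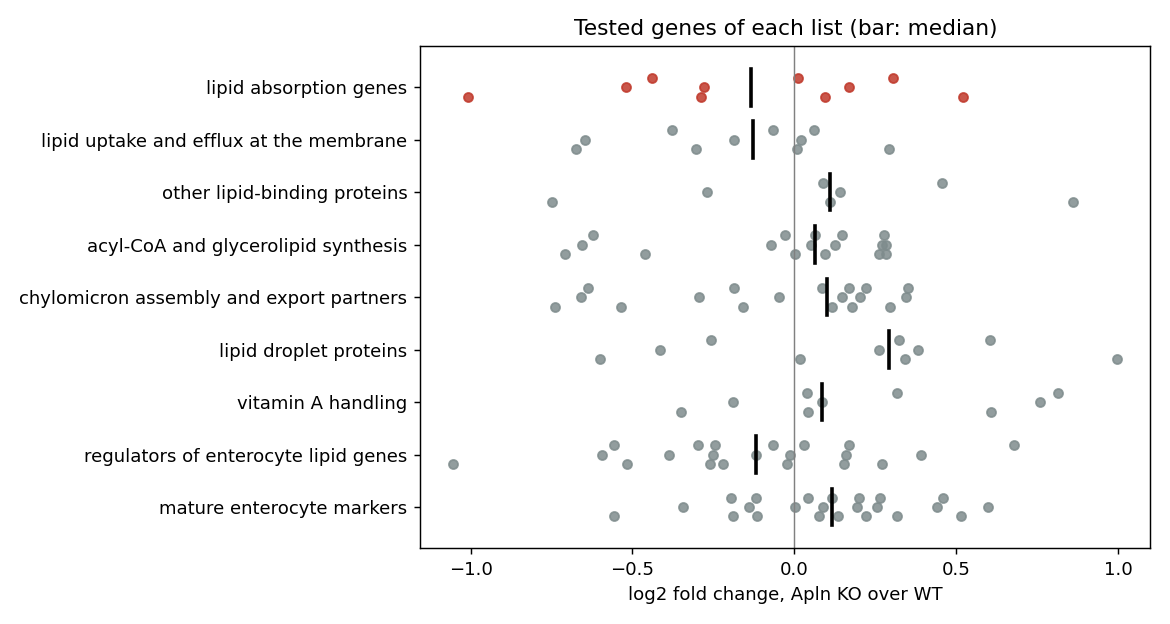
Log2 fold change, Apln knockout over wild type, of the tested genes of each list, with a bar at the median. The 10 lipid absorption genes run from -1.01 to 0.52 with a median of -0.13, and each list plotted has genes on both sides of 0.

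Of 21 regulators of enterocyte lipid genes, all tested, 0 were called, and 0 were higher and 2 lower at an unadjusted p under 0.05. The shares over all tested genes at this limit were 7.53% higher and 7.66% lower. Hnf4a averaged 187 ± 20.6 CPM in knockout cells and 218 ± 33.4 CPM in wild-type cells, and its paralogue Hnf4g 37.0 ± 3.78 CPM in knockout cells and 36.3 ± 4.45 CPM in wild-type cells (SD, n = 3 each). The edgeR adjusted p was 0.568 and 0.956. Ppard, a fatty acid-sensing nuclear receptor gene, was among the lower ones and averaged 35.8 ± 5.09 CPM in knockout cells and 51.3 ± 11.9 CPM in wild-type cells (edgeR adjusted p = 0.230).

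Mature enterocyte genes were present in the CD44+ cells, some with a wide and others with a narrow spread between libraries of one genotype. Of 23 markers, all tested, 0 were called, with 1 higher (Prap1) and 1 lower (Anpep) at an unadjusted p under 0.05. Of all tested genes, 7.53% were higher and 7.66% lower at this limit. Sis, the sucrase-isomaltase gene, had 91.3, 191 and 120 CPM in knockout libraries 1, 2 and 3, against 97.8, 94.7 and 173 CPM in wild-type libraries 1, 2 and 3. Alpi, the intestinal alkaline phosphatase gene, had 14.3, 16.7 and 12.7 CPM in knockout libraries 1, 2 and 3, against 13.5, 20.9 and 15.2 CPM in wild-type libraries 1, 2 and 3. Fabp6, the ileal bile acid-binding relative of Fabp1 and Fabp2, had 40.1, 125 and 52.7 CPM in knockout libraries 1, 2 and 3, against 17.7, 36.7 and 150 CPM in wild-type libraries 1, 2 and 3. Knockout library 2 and wild-type library 3 were high for both Sis and Fabp6. Liver cells make the same apolipoproteins. Of 9 hepatocyte markers, 6 were in the table and 2 could be tested, and the defining marker Alb had 1, 0 and 1 counts in knockout libraries 1, 2 and 3, against 0 in each wild-type library. Alb itself was not tested. Of the 2 tested markers, Ttr and Cps1, the transthyretin gene Ttr averaged 2.82 ± 1.36 CPM in knockout cells and 1.18 ± 0.597 CPM in wild-type cells (SD, n = 3 each; edgeR unadjusted p = 0.0301, adjusted p = 0.271). The summed level of that list was 567 to 714 CPM in knockout libraries and 450 to 684 CPM in wild-type libraries, nearly all of it from Cps1, which enterocytes also express.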

How the data were processed

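The authors deposited one table of whole-number read counts by gene, without normalization. The submitters' processing notes list STAR 2.6.1, HTSeq and mm10. Which annotation and strand setting were used is not given in the sources. Per the labels' protocols, amplification used the Ovation Pico WTA System V2 and library construction the Nextera DNA Flex kit. No column was left without a sample. Symbols, positions and transcript lengths came from GENCODE M21 of the same build, which matched 28551 identifiers, and promoters from RefSeq (GRCm38.p6).

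Counts were analysed with edgeR 4.0.16 in R 4.3.3: filterByExpr (count minimum 10, total minimum 15), TMM scaling, glmQLFit and glmQLFTest without covariates, and Benjamini-Hochberg adjustment over all genes tested with a threshold of 0.05. A list was described by counts and medians, with no set test. Intervals at 95% use the quasi-likelihood degrees of freedom. The fit was tested on simulated counts with known changes, and the share of changes recovered at folds like those seen here is not reported. Libraries of one genotype differed by more than sampling noise (chi-square per degree of freedom 7.50 to 29.9). Labels call the samples biological replicates; no molecular identifiers are described, so reads need not be independent molecules. Alternatives used DESeq2 1.42.0, limma 3.58.1, other scalings and filters, a length and GC correction, a replicate block, and each library left out.

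The members and lists were chosen with earlier results of these data known. Named are the 10 members, label checks, up to 4 genes of lowest p from each list described and preset markers, regulators and partners. Gm10680, Gm47528, Trmt10a, Cps1 and Nt5e were named after their values were seen. A gene of the regulator list is not reported here by name.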

Additional observations from a re-analysis of the deposited data

How the results depend on the processing

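No alternative called any of the 10 genes: 0 passed in each of the 16, with the lowest adjusted p 0.0772, for Fabp1. The sign held in all 16 for Apoa1, Apob, Apoc3, Fabp1 and Rbp2. The log2 fold change of Mttp turned to -0.00749 with DESeq2 size factors and to -0.00746 with the DESeq2 Wald test and to -0.0042 without the 5 most abundant entries. Corrected for length and GC content, Fabp2 was at -0.0113, Fabp6 at -0.0828, Hnf4g at -0.16 and Epcam at -0.0332. With each library left out in turn, log2 fold changes ran from -0.58 to 0.17 for Apoa4, -0.14 to 0.14 for Mttp, -0.0319 to 0.20 for Dgat1, -0.12 to 0.75 for Dgat2, -0.55 to 1.42 for Fabp6, -0.75 to 0.52 for Gata4, -0.0476 to 0.12 for Hnf4g, -0.0761 to 0.57 for Mogat2, -0.21 to 0.48 for Sis and -0.33 to 0.0038 for Alpi. The median over the members ran from -0.27 to 0.0707, above 0 without knockout library 3. The summed CPM of the members was 21.4 higher in the knockout, and 60.7 higher without Apob; the cause was not tested.

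The count of genes called over the whole table, 26, did depend on the setting: 1 with DESeq2 size factors, upper-quartile scaling, the length and GC correction or without the 5 most abundant entries, 56 with limma-voom, 86 with the robust fit, 117 with at least 1 CPM in 3 libraries, 581 with the DESeq2 Wald test, 629 with no filter and 0 to 358 with a library left out, 358 without wild-type library 3 and at most 1 without any other; the cause was not tested. Same-numbered libraries correlated by 0.0109 to 0.0569 in their deviations from the group means. Knockout libraries 1 and 2 correlated best with the wild-type library of the same number, at 0.0406 and 0.0569. Knockout library 3 correlated best with wild-type library 1, at 0.0169 against 0.0109 with wild-type library 3. These correlations are small and the labels state no pairing, so the numbers are not taken to pair the samples. The numbers follow the sample titles, while the deposited columns number some knockout libraries otherwise. With the replicate block 173 genes and 0 members were called. Depth limits Apoc3, Fabp1, Rbp2 and Dgat2 most, with 141 to 348 counts over the knockout libraries.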

Other observations

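Markers of other cell types in the sort were read in the same libraries, and their part in the lipid gene values was not tested. At an adjusted p under 0.05 edgeR called 1 of 10 tuft cell markers, lower in the knockout. It called 0 enteroendocrine, Paneth or dividing cell markers, where 0.172% of all tested genes were called. At an unadjusted p under 0.05, 6 tuft and 6 enteroendocrine cell markers were lower and 0 higher. Of all tested genes, 7.66% were lower at this limit. The summed level of 10 tuft cell markers was 40.7 to 88.4 CPM in knockout libraries and 109 to 149 CPM in wild-type libraries. That of 13 enteroendocrine markers was 820 to 1023 CPM in knockout libraries and 1129 to 1640 CPM in wild-type libraries. Neither of these sums overlapped between the groups, while that of 12 Paneth cell markers, 1407 to 3311 CPM in knockout libraries and 798 to 1429 CPM in wild-type libraries, did. Of these Paneth cell markers 8 were higher at an unadjusted p under 0.05, where 7.53% of all tested genes were higher. The median log2 fold change of these markers was 0.86. Mptx2 and Defa30 have transcripts of 794 and 398 nucleotides, in the short class, while Lyz1 and Itln1 have 1263 and 1141, above it. The part of transcript length in these values was not tested. The sum of 12 dividing cell markers was 532 to 616 CPM in knockout libraries and 658 to 767 CPM in wild-type libraries, without overlap. Of these, 9 had a positive log2 fold change, and Mki67 was at -0.82 (edgeR adjusted p = 0.0628). Mki67 alone had 168, 234 and 202 CPM in knockout libraries 1, 2 and 3, against 312, 404 and 348 CPM in wild-type libraries 1, 2 and 3. This gene therefore weighs heavily in the sum. Its transcript of 10061 nucleotides is in the long class, and the part of length was not tested here either. The stem cell marker Lgr5 averaged 33.0 ± 6.64 CPM in knockout cells and 33.0 ± 6.06 CPM in wild-type cells (SD, n = 3 each).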
